A study of Mus musculus with 17 samples.

Results

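The 10 genes described here are Fos, Fosb, Jun, Junb, Jund, Atf3, Egr1, Ier2, Dusp1 and Rhob. They were taken by gene symbol from the authors' deposited table of 13769 genes measured by RNA sequencing in sorted myeloid cells of the mouse brain. All 10 had 1 row each and 0 were missing. The set holds the Fos and Jun subunits of AP-1, their relative Atf3, the Egr factor Egr1, and 3 further early response genes that encode no AP-1 or Egr factor.

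Immediate early genes are transcribed within minutes of a stimulus, because the factors that start them are already present in the resting cell. Extracellular signals that run through the MAP kinases act on serum response factor and its partners, and on factors of the ATF and CREB family, at the promoters of these genes. The proteins made are largely transcription factors: Fos and Jun proteins pair to form AP-1, and Egr1 is a zinc finger factor. Others, such as the phosphatase Dusp1, damp the same signalling. In macrophages and microglia, the resident macrophages of the brain, these genes are known to respond to growth factors, danger signals and handling of the tissue.

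The cells came from C57bl6/j mice and fell into 4 groups with 17 libraries in all. Transplanted µ (3 libraries) and transplanted TAµ (3 libraries) were sorted from BU-treated adult mice, 3 months after these received GFP-marked Lin- cells. Adult control µ (3 libraries) was sorted at an age of 5 months and P10 TAµ (8 libraries) at postnatal day 10. The names µ, TAµ, BU and Lin- stand in the labels without being spelled out. The sorting gates, the dissociation of the tissue and the GFP status of the sorted cells are not described in the sources used here. The design text speaks of triplicate mice, whereas the labels list 8 P10 libraries. Transplanted µ and TAµ libraries share sample letters and may come from the same mice. The controls differ from each other in age as well as population. Batches of preparation and the groups cannot be told apart. Going by the title of the series, the comparisons address how far cells arising from transplanted progenitors match microglia in their transcripts.

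The authors' deposited table gives an average log2 expression over the libraries and log2 fold changes between groups, and no values per library. Group levels were therefore solved from these, and ± gives standard errors that were worked back from the fold changes and p-values. Levels are not scaled to transcript length, so they are compared between groups and not between genes. A gene is called higher or lower where it passes the limma adjusted p of 0.05 in that table. In bulk samples, fewer cells of a type and less RNA per cell cannot be told apart.

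Early response genes are known to be induced through short elements close to their start sites, so the 6 promoters that hold letters of the ATF and CREB type are shown here. RefSeq promoters (GRCm38.p6) were used for 8 of the 10 genes. No promoter was matched for Ier2, and that of Egr1 was left out before matching. The 200 bases before the start site follow, 5′ to 3′ on the strand of the gene. Capitals mark TGACG, the core of the cAMP response element, on either strand; the whole element TGACGTCA; or TGACATCA, the variant known from the Jun promoter. The windows are chr12:85473690-85473889 (plus strand) for Fos, chr7:19310046-19310245 (minus strand) for Fosb, chr4:95052223-95052422 (minus strand) for Jun, chr8:84978749-84978948 (minus strand) for Junb, chr1:191183334-191183533 (minus strand) for Atf3 and chr17:26508473-26508672 (minus strand) for Dusp1.
Fos: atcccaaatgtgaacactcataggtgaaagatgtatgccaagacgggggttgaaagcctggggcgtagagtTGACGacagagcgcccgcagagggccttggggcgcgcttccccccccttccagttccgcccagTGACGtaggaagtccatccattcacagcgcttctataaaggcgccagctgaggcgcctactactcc
Fosb: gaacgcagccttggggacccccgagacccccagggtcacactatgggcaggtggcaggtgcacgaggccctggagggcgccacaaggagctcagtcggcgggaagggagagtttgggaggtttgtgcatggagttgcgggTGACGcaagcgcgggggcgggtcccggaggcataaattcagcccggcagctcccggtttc
Jun: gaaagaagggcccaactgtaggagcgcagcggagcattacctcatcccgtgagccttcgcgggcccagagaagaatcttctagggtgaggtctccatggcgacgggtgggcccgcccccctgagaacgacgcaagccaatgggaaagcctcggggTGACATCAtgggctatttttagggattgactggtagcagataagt
Junb: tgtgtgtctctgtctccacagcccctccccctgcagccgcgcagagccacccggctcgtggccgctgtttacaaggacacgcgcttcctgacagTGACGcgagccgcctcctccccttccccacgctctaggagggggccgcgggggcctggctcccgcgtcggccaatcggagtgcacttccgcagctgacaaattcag
Atf3: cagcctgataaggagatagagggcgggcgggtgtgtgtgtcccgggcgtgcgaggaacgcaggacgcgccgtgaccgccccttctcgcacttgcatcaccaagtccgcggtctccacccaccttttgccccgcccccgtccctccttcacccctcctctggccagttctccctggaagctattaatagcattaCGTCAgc
Dusp1: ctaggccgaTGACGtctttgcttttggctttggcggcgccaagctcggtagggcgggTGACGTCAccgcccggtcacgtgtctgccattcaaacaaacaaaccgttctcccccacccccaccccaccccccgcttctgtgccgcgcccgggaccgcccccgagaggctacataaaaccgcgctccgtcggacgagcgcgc

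Both strands of the 250 bases before each start were searched, in these 8 promoters and in all 32851 of the RefSeq table. TGACG was found in 5 of the 8, those of Fos, Fosb, Junb, Atf3 and Dusp1, and in 17.8% of all promoters. In Fos it began 129 and 66 bases before the start, in Fosb 60, in Junb 106 and in Atf3 7. Dusp1 held it at 191, 143 and 140 bases, where the match at 140 is on the other strand and overlaps that at 143. Together these form TGACGTCA, which was in Dusp1 alone of the 8 and in 1.55% of all promoters. TGACATCA stood 45 bases before the start of Jun alone among the 8, and in 2.93% of all promoters. The AP-1 site TGACTCA was in 0 of the 8 and in 4.46% of all, and the CArG box, which serum response factor binds, in 0 of the 8 and in 1.47% of all. Sites more than 250 bases before the start, and the promoters of Egr1 and Ier2, were not searched, so these counts do not show that the genes lack such sites. The letters TATAAA occurred in Fos, 33 bases before the start, and in 12.4% of all promoters. The Egr site GCGGGGGCG occurred in Fosb at 50 bases and in 2.57% of all, and its form GCGTGGGCG in 0 of the 8 and in 0.536% of all. The window of Jund held none of these letters, and its RefSeq start lies 1210 bases before the nearest start of a Jund coding transcript in GENCODE, so the window does not reach that start. The other RefSeq starts lie within 30 bases of such a start. In the 5 promoters with TGACG, the 200 bases before the start were 58.5 to 68% G or C, against a median of 53% over all promoters. The part of this base content in the counts was not tested. A match describes letters in the window searched and says nothing of what bound there.

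The genes have few exons. In the GENCODE annotation of GRCm38, 5 of the 10 (Jun, Junb, Jund, Ier2 and Rhob) have a single exon, as do 2.60% of the 11662 genes of the authors' deposited table with a coding transcript. The others have at most 4 exons, and 20.6% of those 11662 genes have 4 or fewer, around a median of 9. The longest coding transcripts of the 10 genes run from 1522 to 4484 bases with a median of 2049, against a median of 3272.5 for those genes. Fos spans chr12:85473890-85477273, Jun chr4:95049034-95052222, Fosb chr7:19302696-19310051 and Rhob chr12:8497661-8500009. The longest annotated spans are those of Atf3, at 47744 bases, and Dusp1, at 56539 bases.

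All 10 genes followed 1 order of group levels at the top. Their level was highest in adult control µ and next highest in P10 TAµ, and in both transplanted fractions it lay below both controls. Transplanted TAµ was the lowest group for 8 genes and transplanted µ for Fos and Atf3. Not every step of this order was called: that between the transplanted fractions was called for Rhob alone, and that between the controls for 6 of the 10. Atf3 was not called between P10 TAµ and either transplanted fraction. Of all genes in the authors' deposited table, 24.6% had both transplanted fractions below both controls. The moderated F over the 4 groups passed the limma adjusted p of 0.05 for 10 of the 10 genes in the authors' deposited table, as for 52.2% of all genes. The spread between the highest and the lowest group ran from 7.59-fold for Jund to 46.5-fold for Egr1.

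**Figure D1:**
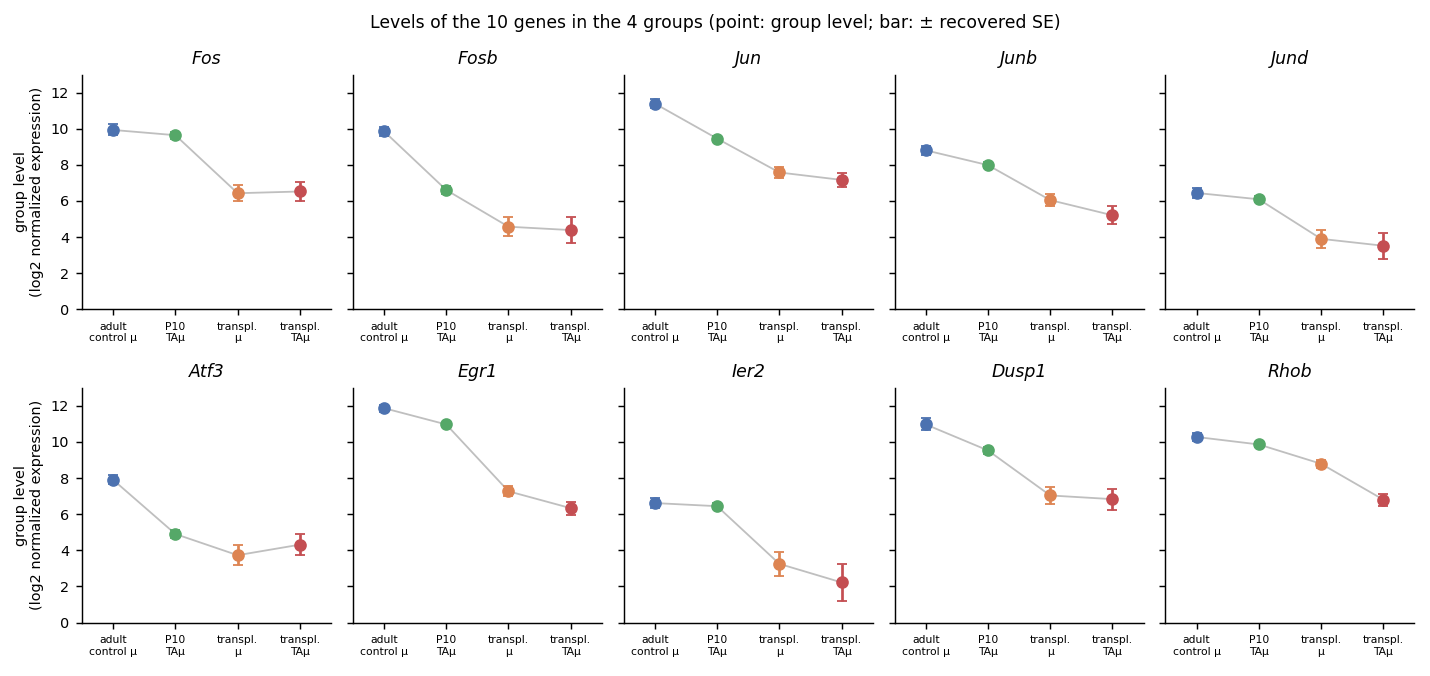
Group level of each of the 10 genes (vertical axis, log2 normalized expression; bars, ± the recovered standard error) in adult control µ, P10 TAµ, transplanted µ and transplanted TAµ, with 3, 8, 3 and 3 libraries. Each line descends from adult control µ through P10 TAµ to the transplanted fractions, with Egr1 going from 11.87 to 6.33 and Atf3 already at 4.90 in P10 TAµ.

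The first comparison set transplanted µ against adult control µ. All 10 genes were lower in the authors' deposited table, 0 were higher, and 10.5% of all genes were lower and 11.3% higher. The median difference of the 10 genes was -3.66, with a median fold of 12.6, against 0.19 for all genes. In the authors' deposited table they ranged from -5.28 for Fosb to -1.48 for Rhob. Their adjusted p-values from limma ran from 4.6e-07 to 0.00551 in the authors' deposited table.

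Transplanted TAµ was then set against P10 TAµ, the young cells named alike. Lower in the authors' deposited table were 9 of the 10 genes, all but Atf3, and 0 were higher, beside 15.3% of all genes lower and 10.5% higher. The median of the 10 genes was -2.74 and that of all genes -0.33. Differences ran from -4.64 for Egr1 to -0.59 for Atf3 in the authors' deposited table.

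**Figure D2:**
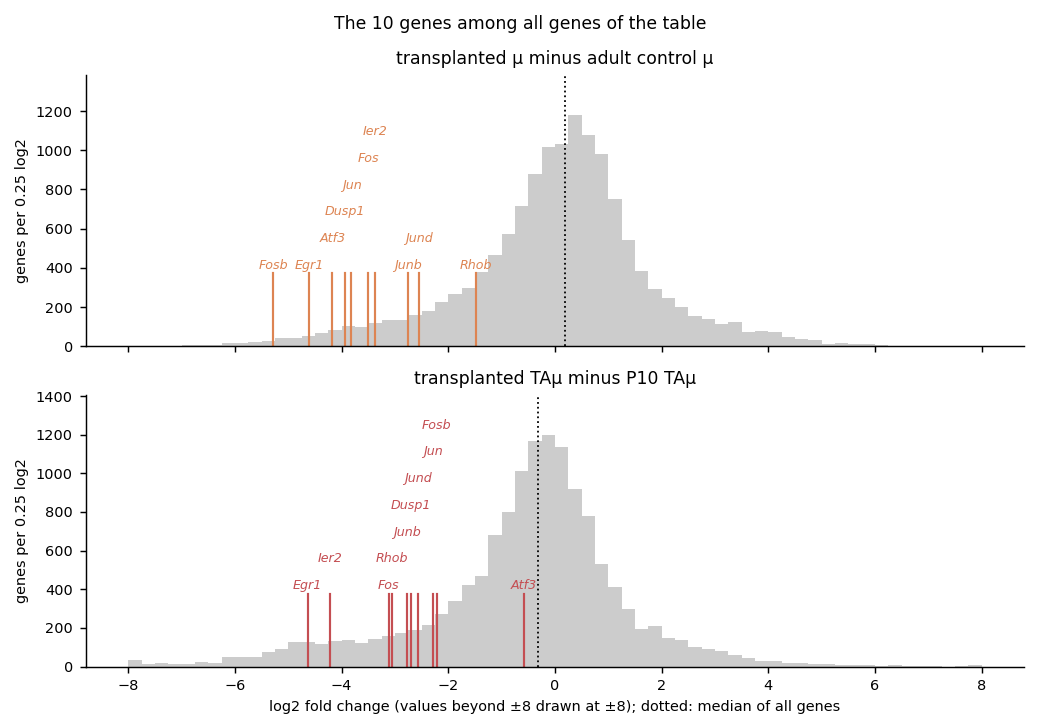
Distribution of the log2 fold changes of all 13769 genes (grey, genes per bin) with the 10 genes as coloured lines, for transplanted µ minus adult control µ (top) and transplanted TAµ minus P10 TAµ (bottom). The 10 genes lie left of the dotted median of all genes in both panels, from Fosb at -5.28 to Rhob at -1.48 in the upper and from Egr1 at -4.64 to Atf3 at -0.59 in the lower.

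The Fos proteins need a Jun partner to bind DNA. Fos had a log2 level of 9.93 ± 0.30 in adult control µ, 9.64 ± 0.18 in P10 TAµ, 6.43 ± 0.43 in transplanted µ and 6.52 ± 0.52 in transplanted TAµ, solved from the authors' deposited table. Both controls were high and both transplanted fractions low, with about the same gap in each pair. In the authors' deposited table the difference was -3.50 ± 0.53 (11.3-fold lower, limma adjusted p = 0.000359) in µ and -3.12 ± 0.55 (8.68-fold lower, limma adjusted p = 0.000566) in TAµ. Between the transplanted fractions Fos differed by 0.10 (95% interval -1.32 to 1.51) and between the controls by -0.29 (95% interval -1.04 to 0.45), neither past the adjusted p of 0.05 in the authors' deposited table.

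Fosb, a paralog of Fos, had a log2 level of 9.86 ± 0.26 in adult control µ, 6.60 ± 0.20 in P10 TAµ, 4.57 ± 0.54 in transplanted µ and 4.38 ± 0.70 in transplanted TAµ, solved from the authors' deposited table. Adult control µ stood alone at the top, and the young cells lay nearer to the transplanted fractions. In the authors' deposited table Fosb was 39.0-fold lower in transplanted µ than in adult control µ, at -5.28 ± 0.59 (limma adjusted p = 4.49e-05), and 4.66-fold lower in transplanted TAµ than in P10 TAµ, at -2.22 ± 0.73 (limma adjusted p = 0.0326). The second of these calls was lost when fold changes were centred on the median of all genes, at -1.89 with an adjusted p of 0.0635.

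The Jun proteins pair with Fos proteins or with each other. Jun itself had a log2 level of 11.39 ± 0.23 in adult control µ, 9.45 ± 0.15 in P10 TAµ, 7.58 ± 0.30 in transplanted µ and 7.16 ± 0.39 in transplanted TAµ, solved from the authors' deposited table. The levels descended in 3 steps, of which the last was within its error. Transplanted µ was 14.1-fold lower than adult control µ, at -3.81 ± 0.38 (limma adjusted p = 1.54e-05), and transplanted TAµ 4.89-fold lower than P10 TAµ, at -2.29 ± 0.42 (limma adjusted p = 0.000727), in the authors' deposited table.

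Junb, the family member often set against Jun in the control of cell division, had a log2 level of 8.80 ± 0.24 in adult control µ, 7.98 ± 0.15 in P10 TAµ, 6.05 ± 0.35 in transplanted µ and 5.21 ± 0.50 in transplanted TAµ, solved from the authors' deposited table. Its differences lay close together in µ, at -2.76 ± 0.42 (limma adjusted p = 0.000415), and in TAµ, at -2.78 ± 0.52 (limma adjusted p = 0.000922), in the authors' deposited table. Junb overlaps Prdx2 on the other strand, and the strandedness of the counting is not given in the sources used here. Prdx2 differed by -0.12 ± 0.42 in µ and by -0.06 ± 0.45 in TAµ in the authors' deposited table, neither past the adjusted p of 0.05.

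Jund is known in many cell types as the Jun gene that is on without a stimulus. It had a log2 level of 6.44 ± 0.28 in adult control µ, 6.09 ± 0.17 in P10 TAµ, 3.90 ± 0.50 in transplanted µ and 3.52 ± 0.71 in transplanted TAµ, solved from the authors' deposited table. It too was lower in both comparisons, at -2.54 ± 0.57 (5.82-fold, limma adjusted p = 0.00551) in µ and -2.57 ± 0.73 (5.95-fold, limma adjusted p = 0.0152) in TAµ in the authors' deposited table.

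Atf3 encodes a stress-induced factor that can pair with Jun and often represses its targets. Its log2 level was 7.90 ± 0.25 in adult control µ, 4.90 ± 0.22 in P10 TAµ, 3.73 ± 0.54 in transplanted µ and 4.31 ± 0.58 in transplanted TAµ, solved from the authors' deposited table. Only adult control µ was high among the 4 groups. In the authors' deposited table Atf3 was 18.1-fold lower in transplanted µ than in adult control µ, at -4.17 ± 0.60 (limma adjusted p = 0.000263). Against P10 TAµ the authors' deposited table gave a difference of -0.59 ± 0.63 (95% interval -1.90 to 0.72, limma adjusted p = 0.512) in transplanted TAµ and of -1.17 ± 0.59 (95% interval -2.40 to 0.06, limma adjusted p = 0.164) in transplanted µ.

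Egr1 encodes a zinc finger factor that binds GC-rich promoters, including those of its own corepressors. Its log2 level was 11.87 ± 0.20 in adult control µ, 10.97 ± 0.11 in P10 TAµ, 7.27 ± 0.27 in transplanted µ and 6.33 ± 0.37 in transplanted TAµ, solved from the authors' deposited table. Both controls stood far above both transplanted fractions. The fold was 24.3 in µ, at -4.60 ± 0.33, and 24.9 in TAµ, at -4.64 ± 0.38 (limma adjusted p = 3.8e-07), in the authors' deposited table. Ranked by the moderated statistic, which is the fold change over its error, Egr1 was the lowest of all ranked genes in both comparisons, at -13.75 and -12.06. The next lowest were Luc7l2 at -13.52 and Aplnr at -11.98, so the lead was small. Statistics of this size rest on fitted errors, as described below, so the order at the top is uncertain.

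Ier2, a nuclear early response gene whose product is less well described, had a log2 level of 6.62 ± 0.26 in adult control µ, 6.44 ± 0.15 in P10 TAµ, 3.25 ± 0.65 in transplanted µ and 2.22 ± 1.03 in transplanted TAµ, solved from the authors' deposited table. The controls were close and the transplanted fractions both lower, where Ier2 had the widest errors of the 10 genes. Ier2 was 10.3-fold lower in µ, at -3.37 ± 0.70 (limma adjusted p = 0.00338), and 18.7-fold lower in TAµ, at -4.22 ± 1.05 (limma adjusted p = 0.00679), in the authors' deposited table.

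Dusp1 removes the activating phosphates of MAP kinases. Its log2 level was 10.97 ± 0.33 in adult control µ, 9.53 ± 0.21 in P10 TAµ, 7.04 ± 0.46 in transplanted µ and 6.83 ± 0.58 in transplanted TAµ, solved from the authors' deposited table. It lay 15.3-fold lower in µ, at -3.93 ± 0.56 (limma adjusted p = 0.000273), and 6.49-fold lower in TAµ, at -2.70 ± 0.61 (limma adjusted p = 0.00384), in the authors' deposited table. In the annotation Dusp1 overlaps Ergic1 on the other strand, which was higher in transplanted µ by 1.23 ± 0.23 and differed by -0.38 ± 0.21 in TAµ in the authors' deposited table.

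Rhob, a small GTPase that acts on endosomes and the cytoskeleton, had a log2 level of 10.28 ± 0.20 in adult control µ, 9.86 ± 0.12 in P10 TAµ, 8.79 ± 0.22 in transplanted µ and 6.81 ± 0.34 in transplanted TAµ, solved from the authors' deposited table. Its transplanted fractions did not lie together: µ was nearer to the controls and TAµ well below. Rhob was 2.80-fold lower in µ, at -1.48 ± 0.30 (limma adjusted p = 0.00279), and 8.31-fold lower in TAµ, at -3.06 ± 0.36 (limma adjusted p = 1.21e-05), in the authors' deposited table.

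Within transplanted mice, TAµ was compared with µ. In the authors' deposited table Rhob was lower in TAµ, at -1.99 ± 0.41 (3.96-fold, limma adjusted p = 0.00679), and was the only gene of the 10 called, beside 2.93% of all genes lower and 3.56% higher. The other 9 ran from -1.03 for Ier2 to 0.58 for Atf3 in the authors' deposited table. Egr1 came nearest to the threshold among them, in the authors' deposited table at -0.94 ± 0.46 (95% interval -1.90 to 0.03, limma adjusted p = 0.237). The median of the 10 genes was -0.40 and that of all genes -0.02. For Fosb the interval ran from -2.04 to 1.67 and for Dusp1 from -1.75 to 1.34, and differences within these intervals were not detectable here.

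The controls were compared with each other as P10 TAµ minus adult control µ. Of the 10 genes in the authors' deposited table, 6 were lower in the young cells (Fosb, Jun, Junb, Atf3, Egr1 and Dusp1) and 0 were higher, beside 12.5% of all genes lower and 23.2% higher. Fosb at -3.25 ± 0.33 (limma adjusted p = 1.65e-06) and Atf3 at -3.00 ± 0.33 (limma adjusted p = 4.94e-06) led in the authors' deposited table. Jun followed at -1.94 ± 0.28, Dusp1 at -1.44 ± 0.39, Egr1 at -0.90 ± 0.22 and Junb at -0.82 ± 0.29 in the authors' deposited table. Not called in the authors' deposited table were Fos at -0.29, Jund at -0.35, Ier2 at -0.17 and Rhob at -0.42. Rhob passed when fold changes were centred on the median of all genes, at -0.83 with an adjusted p of 0.0116. The median was -0.86 for the 10 genes and 0.41 for all genes.

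The crosswise comparisons share their groups with those above and are given beside them. Transplanted TAµ minus adult control µ had 10 of the 10 genes lower, with 13.4% of all genes lower, in the authors' deposited table. Its differences in the authors' deposited table ran from -5.54 ± 0.42 for Egr1 to -2.92 ± 0.76 for Jund, with a median of -3.87. Transplanted µ minus P10 TAµ had 9 of the 10 lower, all but Atf3, with 12.6% of all genes lower, in the authors' deposited table. There the authors' deposited table gave differences from -3.70 ± 0.29 for Egr1 to -1.07 ± 0.26 for Rhob, with a median of -2.11. These pairs differ in both age and population name.

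Whether the difference from control was of the same size in both fractions was tested by subtracting the µ difference from the TAµ difference, with the recovered errors, over 13759 genes. Of the 10 genes 2 were more positive, beside 3.79% of all genes, and 1 was more negative, beside 9.62% of all genes. Atf3 was more positive by 3.59 ± 0.86 (adjusted p = 0.0126) and Fosb by 3.06 ± 0.94 (adjusted p = 0.0391), the difference from control being smaller in TAµ than in µ for each, as computed from the authors' deposited table. Rhob was more negative, by -1.57 ± 0.47 (adjusted p = 0.0347). The same quantity can be read as the TAµ-minus-µ difference of the transplanted mice less that of the controls. For Atf3 and Fosb the transplanted fractions differed by 0.58 ± 0.80 and -0.19 ± 0.88 in the authors' deposited table. P10 TAµ and adult control µ differed in these genes by -3.00 ± 0.33 and -3.25 ± 0.33 in the authors' deposited table. These controls also differ in age and in markers of several cell types. For Rhob the transplanted fractions differed by -1.99 ± 0.41 and the controls by -0.42 ± 0.24 in the authors' deposited table.

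The remaining 7 did not pass this test. Jun stood at 1.53 ± 0.57 (adjusted p = 0.0814) and Dusp1 at 1.23 ± 0.83 (adjusted p = 0.340). Egr1 at -0.03 (95% interval -1.10 to 1.04), Junb at -0.02 (95% interval -1.43 to 1.39) and Jund at -0.03 (95% interval -1.98 to 1.92) were near 0 with intervals of differing width. The median was 0.18 for the 10 genes and -0.51 for all genes. Centring on the median of all genes ended the call of Rhob, at -1.07 with an adjusted p of 0.148, and made a call of Jun, at 2.03 with an adjusted p of 0.0268. With the 13 residual degrees of freedom alone the calls of Fosb (adjusted p = 0.0557) and Rhob (adjusted p = 0.0508) were lost and that of Atf3 was kept. The sum of variances does not allow for mice shared between the transplanted fractions.

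**Figure D3:**
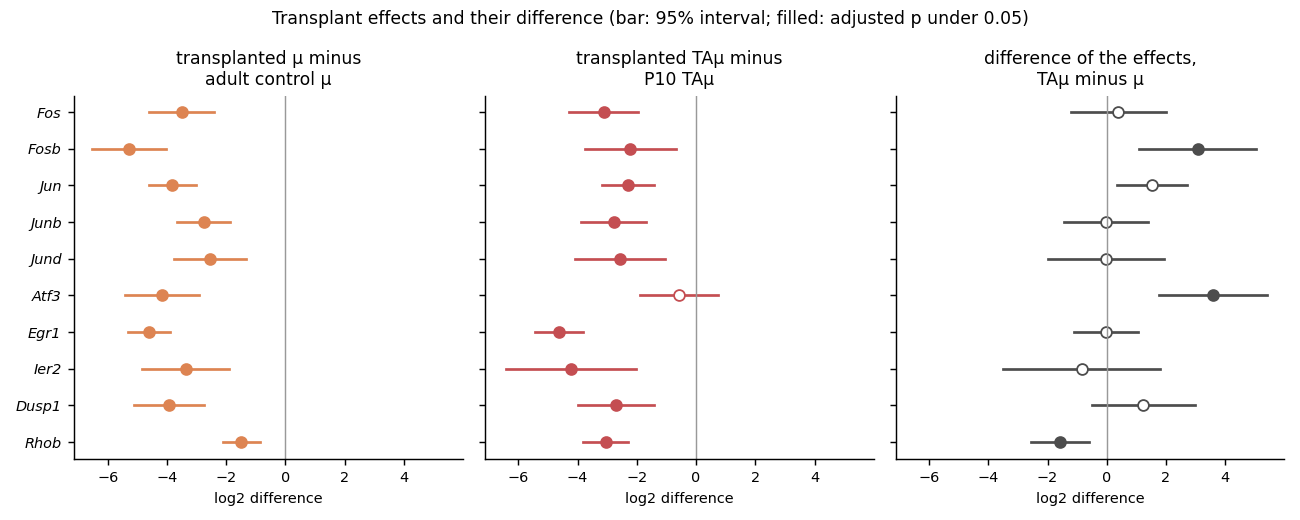
Log2 difference of each gene (points; bars, 95% interval; filled points, adjusted p under 0.05) for transplanted µ minus adult control µ, transplanted TAµ minus P10 TAµ, and the second less the first. Every filled point of the left and middle panels lies below 0, Atf3 at -0.59 is open in the middle panel, and Fosb at 3.06, Atf3 at 3.59 and Rhob at -1.57 are filled in the right one.

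The gene lists that follow are set beside the shares of all genes, 10.5% lower and 11.3% higher in µ and 15.3% lower and 10.5% higher in TAµ. Of 19 measured genes among 20 other AP-1, ATF and CREB family factors, 3 were lower and 2 higher in transplanted µ than in adult control µ in the authors' deposited table, near the shares of all genes. The lower ones were Maff at -4.33 ± 1.10 and Mafg at -0.96 ± 0.29, which encode small Maf proteins, and Atf4 at -1.18 ± 0.27, a factor of the stress response to misfolded protein and lack of amino acids, in the authors' deposited table. The higher ones were Atf1 at 0.79 ± 0.24 and Atf2 at 0.86 ± 0.28 in the authors' deposited table. In TAµ against P10 TAµ 0 were lower and 2 higher, the AP-1 gene Fosl2 at 1.36 ± 0.44 and Atf6 at 0.72 ± 0.24, in the authors' deposited table. The medians of this list were -0.05 in µ and -0.17 in TAµ, and those of all genes 0.19 and -0.33.

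Among the other Egr factors and the Nab corepressors that bind Egr proteins, 4 of 5 genes were measured. Egr2 was lower in both comparisons, at -4.94 ± 1.26 (limma adjusted p = 0.0111) in µ and -4.96 ± 1.74 (limma adjusted p = 0.0442) in TAµ, in the authors' deposited table. Nab1 was higher in TAµ by 1.55 ± 0.44 in the authors' deposited table, and the list had medians of -1.63 and -0.44. Of the 6 genes for serum response factor and its cofactors, 0 were called in µ and 1 in TAµ, the cofactor gene Elk3 at -0.95 ± 0.19, in the authors' deposited table. Srf itself differed by -0.42 ± 0.35 in µ and -0.88 ± 0.38 in TAµ, neither past the adjusted p of 0.05, in the authors' deposited table. The medians of this list were -0.18 in µ and 0.37 in TAµ.

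A list of 33 other early and rapid response genes had 30 measured. In transplanted µ against adult control µ 15 were lower and 1 was higher, with a median of -1.62, in the authors' deposited table, beside 10.5% of all genes lower and 11.3% higher. The lower genes were Ier5, Btg1, Btg2, Nr4a1, Myc, Per1, Zfp36, Zfp36l1, Zfp36l2, Trib1, Rgs1, Klf2, Klf4, Klf6 and Nfkbiz. The antiproliferative genes Btg2 at -3.17 ± 0.35 and Btg1 at -2.58 ± 0.31 had the smallest adjusted p-values, and Id3, an inhibitor of helix-loop-helix factors, stood higher at 4.60 ± 0.90, in the authors' deposited table. In TAµ against P10 TAµ 9 were lower and 1 higher, with a median of -1.12, in the authors' deposited table, beside 15.3% of all genes lower and 10.5% higher. The lower genes there were Ier3, Ier5, Btg1, Myc, Zfp36, Zfp36l1, Trib1, Rgs2 and Klf10. Zfp36, whose product binds unstable mRNAs and marks them for decay, was at -3.27 ± 0.48 and its relative Zfp36l1 at -1.49 ± 0.22, and the orphan receptor gene Nr4a3 stood higher at 3.46 ± 0.80, in the authors' deposited table. The average expression of Id3 and Nr4a3 lay in the range below the first quartile, 0.88, and the size of their changes is uncertain.

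Genes that carry or damp MAP kinase signals had calls in both directions, as had all genes, of which 10.5% were lower and 11.3% higher in µ and 15.3% lower and 10.5% higher in TAµ. Of 13 measured phosphatase and feedback inhibitor genes among 17, 4 were higher and 3 lower in µ, and 4 higher and 2 lower in TAµ, in the authors' deposited table. The phosphatase gene Dusp2 was lower, at -5.02 ± 1.11 in µ and -8.55 ± 1.25 in TAµ, and so was Spry1, an inhibitor of receptor tyrosine kinase signalling, at -4.37 ± 1.33 and -5.35 ± 1.74, in the authors' deposited table. Spred1, another inhibitor of that pathway, was higher, at 0.87 ± 0.21 and 0.81 ± 0.19, in the authors' deposited table. The solved level of Dusp2 in transplanted TAµ was -4.47, close to the -4.66 at which genes without signal there are listed, so the size of its change in TAµ is uncertain. The medians were 0.77 in µ and -0.85 in TAµ, against 0.19 and -0.33 for all genes. Of 23 MAP kinases and upstream kinases, 5 were higher and 1 lower in µ, and 3 higher and 1 lower in TAµ, with medians of 0.32 and 0.07, in the authors' deposited table. Map2k1, a kinase that activates ERK, was higher in µ by 0.97 ± 0.20, and Map3k5, which acts in stress signalling, was higher in TAµ by 1.44 ± 0.28, in the authors' deposited table.

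**Figure D4:**
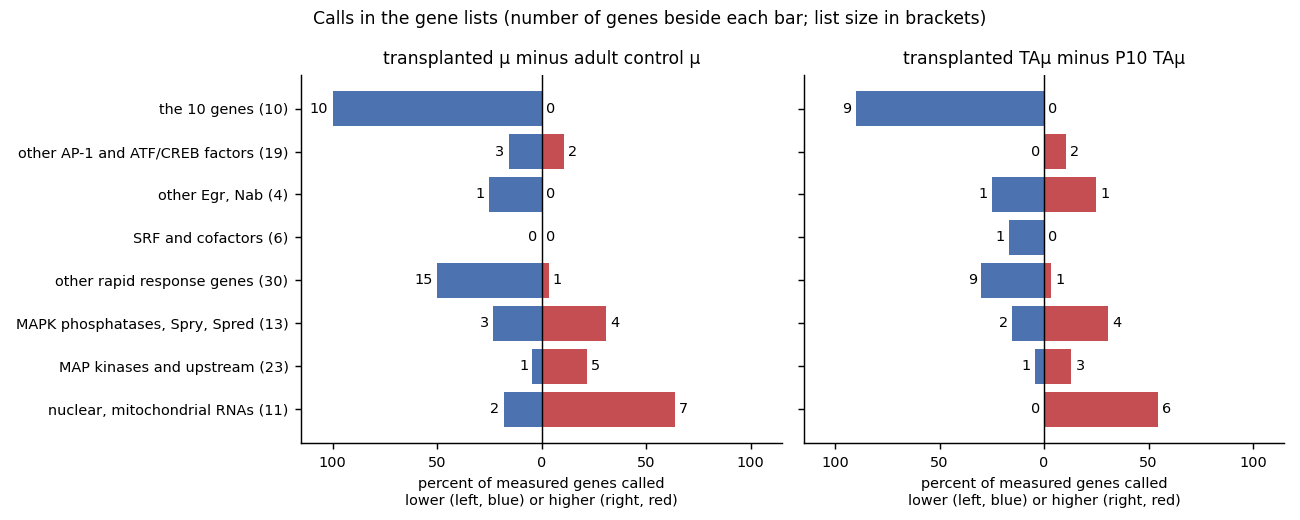
Percent of measured genes called lower (left, blue) or higher (right, red) in each gene list, for transplanted µ minus adult control µ and transplanted TAµ minus P10 TAµ; the number of genes stands beside each bar. The 10 genes have 10 and 9 lower, the 30 other rapid response genes 15 and 9, and the other lists shown at most 3 lower.

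Some signs of RNA content moved with these genes. The nuclear RNAs Malat1 and Neat1 were lower in transplanted µ than in adult control µ, at -3.77 ± 0.46 and -5.20 ± 0.67, in the authors' deposited table. Against P10 TAµ they were not called in transplanted TAµ, at -1.32 ± 0.48 and -0.08 ± 0.67, in the authors' deposited table. P10 TAµ was lower than adult control µ in both, at -2.80 ± 0.36 and -4.34 ± 0.33, in the authors' deposited table. All 6 measured mitochondrial genes were higher in both transplant comparisons, with mt-Co1 at 1.74 ± 0.35 in µ and 1.89 ± 0.32 in TAµ, in the authors' deposited table. Of the 11 measured genes of this list, 7 were higher and 2 lower in µ, and 6 higher and 0 lower in TAµ. The part of RNA quality in the lower early response genes was not tested.

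Markers of the sorted cells were present in every group. The log2 of the summed level of 8 microglia markers was 14.3 in transplanted µ, 13.3 in transplanted TAµ, 13.7 in adult control µ and 13.9 in P10 TAµ. Of these markers 3 were higher and 0 lower in transplanted µ against adult control µ, and 1 higher and 3 lower in TAµ against P10 TAµ, in the authors' deposited table. In TAµ against µ of transplanted mice 6 of the 8 were lower, beside the lower Rhob, in the authors' deposited table. Astrocyte, oligodendrocyte and neuron markers had larger summed levels in the transplanted fractions than in the controls. The summed level of 7 astrocyte markers was 10.8 and 11.8 in transplanted µ and TAµ against 8.72 and 8.35 in adult control µ and P10 TAµ, with 4 of 7 called higher in µ and 5 of 7 in TAµ. That of 6 oligodendrocyte markers was 9.81 and 10.7 against 7.53 and 7.21, with 2 and 3 called higher, and that of 8 neuron markers 6.98 and 7.42 against 3.93 and 5.28, with 5 and 1 called higher. In transplanted µ and TAµ these sums mostly reflect 1 gene each: Slc1a2 at 10.5 and 11.6, Mbp at 9.26 and 10.2, and Snap25 at 6.60 and 7.05. Neuron markers did not all move alike: in transplanted µ against P10 TAµ 1 was called higher and 2 lower. The 3 measured of 4 monocyte markers summed to 4.20 and 7.96 against 2.84 and 3.29, with 0 and 2 called higher. In transplanted TAµ the monocyte sum was nearly all Itga4, at 7.88. The 3 measured of 4 neutrophil markers summed to 6.83 and 5.91 against 8.53 and 4.16, with 0 called in either comparison. The 4 measured of 5 endothelial markers summed to 4.12 and 2.32 against 4.37 and 4.64, with 0 and 2 called lower, and the 3 measured of 5 erythroid markers to -0.57 and 2.85 against 0.37 and 0.40, with 1 and 2 called higher. The 2 erythroid markers called had an average log2 expression of -1.31 and -1.74, below the first quartile of 0.88. The size of their changes is uncertain. Of 5 T and B cell markers 0 were among the genes analysed here. In P10 TAµ against adult control µ, where 6 of the 10 genes were lower, 2 of the 3 neutrophil markers were lower, S100a8 at -4.39 and S100a9 at -4.47, and 5 of the 8 neuron markers were higher, in the authors' deposited table. In that comparison microglia markers had 1 higher and 2 lower, and astrocyte markers 2 higher and 1 lower. Erythroid markers had 2 higher, oligodendrocyte and endothelial markers 1 higher each, and monocyte markers 0 called. The part of these other cells in the lower early response genes was not tested.

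Outside the lists, the genes whose profile over the 4 groups was most like the median profile of the 10 genes were sought among 6494 genes of at least median expression. Each gene was centred on its mean over the groups, and likeness was the root mean square distance in log2 units over these 4 groups. The nearest were the chemokine gene Ccl2 at 0.207, the cyclin gene Ccnl1 at 0.263, the chemokine gene Ccl3 at 0.394, the phosphatase gene Ptp4a1 at 0.395 and the zinc finger gene Zbed6 at 0.399. Among the 10 genes themselves Dusp1 was nearest to their median at 0.117 and Atf3 farthest at 0.813. Ccnl1 was lower in both comparisons, at -3.80 in µ and -2.09 in TAµ, in the authors' deposited table. So were Ccl3, at -3.68 and -2.56, and Zbed6, at -2.62 and -2.24, in the authors' deposited table. Ptp4a1 was lower in µ at -3.49 and not called in TAµ at -1.69 (limma adjusted p = 0.186) in the authors' deposited table. Ccl2 was lower in µ at -3.55 (limma adjusted p = 0.0288) and was not called in TAµ at -3.31 (limma adjusted p = 0.103) in the authors' deposited table.

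**Figure D5:**
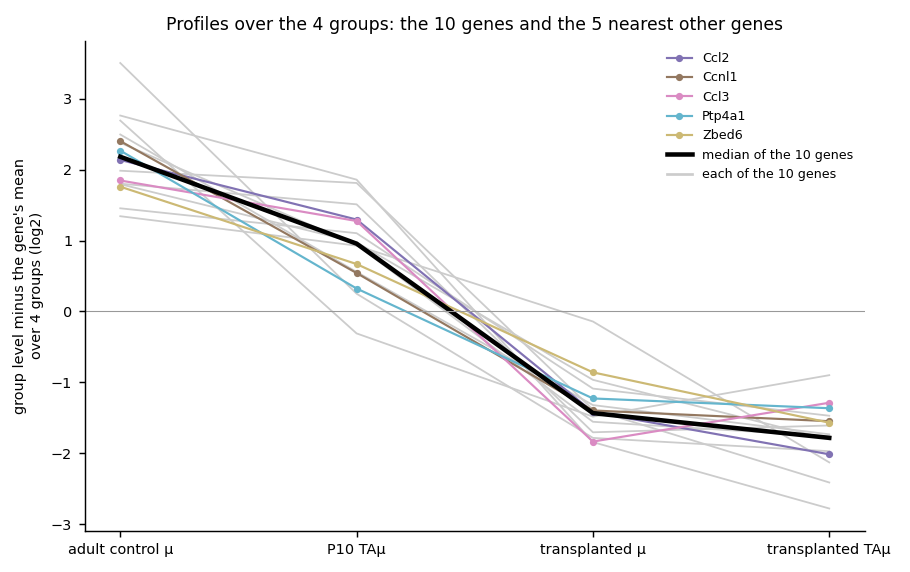
Group level minus the mean of each gene over the 4 groups (vertical axis, log2) for the median of the 10 genes (black), each of the 10 genes (grey) and the 5 nearest other genes (coloured). The median of the 10 genes runs from 2.18 in adult control µ through 0.96 in P10 TAµ to -1.43 in transplanted µ and -1.78 in transplanted TAµ.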

How the data were processed

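RNA sequencing was done by the authors on 17 libraries of sorted brain myeloid cells. Per the labels' protocols, 100 ng of RNA per library was amplified and sequenced single-end over 50 cycles. Per the submitters' processing notes, STAR 2.3.0, HTSeq 0.5.3, limma and the build mm10 were used. The sources used here do not give the gene filter, normalization or limma settings, and depth per library was not analysed here. The authors' log2 average expression and log2 fold changes, their p-values, unadjusted and Benjamini-Hochberg adjusted, and their score columns (a moderated F and a call) were used as deposited, per the file headers. Calls matched the adjusted p of 0.05 with 0 exceptions.

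The headers do not state the sign, so the first-named group was read as the positive one, since 8 of 8 cell division genes then stand higher in P10 TAµ. Degrees of freedom were solved from F and its p (18, from 9369 genes). Standard errors came from each fold change and p. For p under 1e-05 the adjusted p and its rank gave only a first value. The errors used there were taken from group variances fitted over the comparisons of a gene, mainly to those with larger p. The group variances they imply added up across comparisons to a ratio between 0.9997 and 1.0003 (1st to 99th percentile of 13744 genes). Where p was under 1e-05 this ratio is met in part by construction, so it is no independent check of those errors. Median standard errors were 0.62 for transplanted µ minus adult control µ and 0.57 for transplanted TAµ minus P10 TAµ. Levels were solved with groups weighted 3, 3, 3 and 8 by libraries. This was checked on 70 genes with 1 shared fold change, whose solved level in transplanted µ had an interquartile range of 0.044, against 0.475 with equal weights. The interaction was tested with the summed variances and adjusted over 13759 genes, 10 others having no recovered error. The steps were tested on simulated data in which each gene had the same spread in all groups. The recovered errors here differ between groups of equal size, so that setting was not tested.

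The members, lists and tests were chosen with earlier results of these data known. Named are the members, up to 2 called genes a list and direction with the smallest adjusted p, list members that stand beside a result or make up a count, markers, and the 5 nearest profiles. The result of 1 further list is not reported here. Luc7l2, Aplnr, Prdx2, Ergic1, S100a8, S100a9, Slc1a2, Mbp, Snap25 and Itga4 were named after their values were seen. Sequences and annotation are from RefSeq and GENCODE. Tools were Python 3.11.15, pandas 2.3.3, numpy 2.4.6, scipy 1.17.1 and matplotlib 3.10.9.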

Additional observations from a re-analysis of the deposited data

Results flagged for a closer look

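The difference from control was unlike in the µ and TAµ fractions for 3 of the 10 genes. This was by a test of that difference itself with adjustment over 13759 genes. Of the 10 genes 2 were more positive, beside 3.79% of all genes. The 1 that was more negative stands beside 9.62% of all genes, a count near that share. Fosb differed by 3.06 ± 0.94 (adjusted p = 0.0391) and Atf3 by 3.59 ± 0.86 (adjusted p = 0.0126), the difference from control being smaller in TAµ than in µ for each. Rhob differed by -1.57 ± 0.47 (adjusted p = 0.0347), the difference from control being larger in TAµ. With 13 degrees of freedom the calls of Fosb (adjusted p = 0.0557) and Rhob (adjusted p = 0.0508) were lost, centring on the median of all genes ended that of Rhob (adjusted p = 0.148), and at a threshold of 0.01 there were 0 calls. The controls of the fractions differ in age, which cannot be told apart from the fraction here.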

How the results depend on the processing

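Of all genes, Bonferroni adjustment left 91 lower and 36 higher for transplanted µ minus adult control µ, against 1440 and 1557 as reported. For transplanted TAµ minus P10 TAµ it left 102 lower and 229 higher, against 2100 and 1441. With Bonferroni adjustment the number of the 10 genes called was 6 for transplanted µ minus adult control µ, 2 for transplanted TAµ minus P10 TAµ, 0 for transplanted TAµ minus transplanted µ, 3 for P10 TAµ minus adult control µ, 4 for transplanted TAµ minus adult control µ, 2 for transplanted µ minus P10 TAµ and 0 for the difference of the transplant effects. That difference also had 0 calls at a threshold of 0.01 and 1, Atf3, with 13 degrees of freedom, against 3 as reported. The other counts stayed within 1.5 times under a threshold of 0.01, a minimum log2 fold change of 1, a filter at the first quartile of expression and centring on the median fold change. Centring left 63 of 70 gene-by-comparison results on their side of 0 and of the threshold. It changed the calls of 4 others, given above, and turned the sign of 3 uncalled differences of the effects, Junb to 0.49, Jund to 0.47 and Egr1 to 0.47. It moved the split of all genes called higher and lower from 1557 and 1440 to 1073 and 1775 for transplanted µ minus adult control µ, from 1441 and 2100 to 2183 and 1434 for transplanted TAµ minus P10 TAµ, from 3195 and 1721 to 1874 and 2801 for P10 TAµ minus adult control µ, from 1051 and 1741 to 1958 and 1199 for transplanted µ minus P10 TAµ, and from 521 and 1324 to 1007 and 624 for the difference of the effects. With groups weighted equally 35 of 40 levels moved by less than the SD that their standard error implies, and 5, of Egr1 and Ier2, by more, all by at most 0.55. No paired analysis was possible because the table holds no values per library, and leaving out each replicate could not be run for the same reason. The depth behind each value is unknown.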
